A study of Homo sapiens with 32 samples.

Results

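Replication-dependent histone genes are described here by the RNA contacts of Alyref, Chtop and Nxf1. They were taken as the protein-coding genes of the GRCh37 annotation whose names follow the cluster pattern (H1-1 to H1-6, H2AC, H2BC, H3C or H4C with a number, or the older HIST names). The rule gave 66 of the 19882 protein-coding genes counted, of which 6 code for H1, 17 for H2A, 16 for H2B, 13 for H3 and 14 for H4. The method, iCLIP, crosslinks protein to RNA with UV light in living cells and reads the crosslinked base from the point where reverse transcription stopped. Each deposited value is the number of deduplicated cDNAs (tags) at a base. Alyref and Chtop, subunits of the TREX mRNA export complex, and the export receptor Nxf1 carried a FLAG tag and were expressed one by one in FlipIn HEK293T cells, as the labels name them. This cell line derives from human embryonic kidney, and a transgene is placed at a single recombination site in it. The Control libraries came from FLAG alone in the same line. Transgenes of Alyref and Chtop were induced with 10 ng/mL tetracycline and that of Nxf1 with 5 ng/mL, in each case for 48 h, so that Nxf1 differed from the others in the dose too. A dose for the Control was not given in the labels used here. There were 3 replicates of each of the 4 groups, sequenced in 32 lane runs, and nothing in the labels says that the replicates came from separate cultures, so that p-values measure the spread between these libraries, which may be technical.

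Replication-dependent histone mRNAs are made in S phase, when new DNA must be packed into chromatin. H2A, H2B, H3 and H4 form the core of the nucleosome, and H1 binds the linker DNA between nucleosomes. Their genes lie in clusters and have no introns, and their mRNAs carry a conserved stem-loop near the 3′ end in place of a poly(A) tail. The stem-loop is bound by SLBP, the pre-mRNA is cleaved a few bases downstream of it, and a purine-rich element further downstream pairs with the U7 snRNA. An intronless mRNA cannot obtain export adaptors through splicing, which is the question that histone mRNAs pose for TREX.

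The stem-loop was located in all 66 genes, and it sets the coordinate used below, so that the 5 genes with most tags in their class are shown. Capitals mark the 16 bases of the hairpin, that is 2 stem arms of 6 bases around a loop of 4 bases, and the flanking bases are in lower case.
H1-4 (chr6:26157318-26157343, plus strand): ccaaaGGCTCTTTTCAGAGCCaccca
H2AC11 (chr6:27101289-27101314, plus strand): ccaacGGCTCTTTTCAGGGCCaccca
H2BC12 (chr6:27114140-27114165, minus strand): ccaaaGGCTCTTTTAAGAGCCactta
H3C2 (chr6:26031820-26031845, minus strand): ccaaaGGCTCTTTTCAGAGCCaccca
H4C3 (chr6:26104540-26104565, plus strand): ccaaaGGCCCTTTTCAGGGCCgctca
The form of H1-4 and H3C2 was found in 39 genes and in all classes but H4. Genes for H4 carried forms of their own, and that of H4C3 was found in 9 of them. The hairpin was sought as a 6-base stem that opens with GG and closes with CC, with at most 1 mismatched pair and a T and A pair next to the loop, around a loop that opens with T and then T or C, on the gene's strand. Within the window from 100 bases before to 50 bases after the annotated transcript end it was present in 64 of 66 histone genes and in 20 of 19816 other genes (0.101%). Among these 20 were H3-4 and H3-7, histone H3 genes that the name pattern does not take in. In 58 histone genes the hairpin closed 4 to 6 bases before the annotated end, with a median of 5. In H2BC21 the annotated canonical transcript ran on for 1729 bases, and tags in that extension stood outside the positional measures. AAAGA, a purine run of the kind found in the downstream element, was present in the 70 bases past the hairpin in 30 of 66 genes (45.5%), and in the 50 bases past the annotated end in 40.9% of histone genes against 6.08% of other genes.

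The genes were short and partly alike in sequence, which bounds what uniquely mapped reads can show. Transcripts from start to hairpin had a median length of 484 bases (352 to 792), and 3′ UTRs up to the hairpin end were 38 to 83 bases long. In all, 74.1% of their bases began a 30-mer that is unique in the genome, and 14 of the 66 genes had a unique 30-mer at fewer than 50 percent of their bases. These 14 held 189 of the histone tags. Most genes, 52 of 66, lay on chromosome 6 between 25726291 and 27861669 and held 85.1% of the histone tags. Another 11 lay on chromosome 1 between 149783434 and 149859515, 2 lay further along that chromosome, and 1 on chromosome 12.

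Depth differed widely. Exonic tags numbered 17219 to 277709 in the Alyref and Chtop libraries, 3742 to 35947 in the Nxf1 libraries and 2293 to 6522 in the Control libraries, and replicate 1 was the shallowest of every group. The 66 genes took 1526 tags of the 1145397 exonic tags of all libraries. A count of 0, for which up to 3 tags are allowed, means up to 10.8 CPM (tags scaled to 1000000 exonic tags) in Chtop 2 but up to 802 in Nxf1 1 and 1308 in Control 1. Intervals and limits cover counting error only. Of markers reported for HEK293-derived lines, VIM had 174 tags, NEFL 40, PAX2 16 and NEFM 0, and of markers of blood, liver, endothelium and astrocytes PTPRC and ALB had 1 tag each, CD34 and GFAP none.

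The first question was how much of each factor's exonic contact fell on histone mRNA. It was highest in the deeper Nxf1 libraries. In Nxf1 2 and Nxf1 3, 0.757% (exact 95% interval 0.670 to 0.852) and 0.627% (0.536 to 0.730) of exonic tags lay in histone genes. Nxf1 1, with 4 histone tags in all, stood at 0.107% (0.0291 to 0.273). The Alyref libraries gave 0.164%, 0.113% and 0.127%, and the Chtop libraries 0.116%, 0.0897% and 0.0623%. In the Control 0.0872%, 0.169% and 0.368% were found, on 2, 11 and 11 tags. The Alyref mean was 0.134% ± 0.0263 (SD, n = 3) and the Chtop mean 0.0894% ± 0.0269 (SD, n = 3). That of Nxf1 was 0.497% ± 0.344 (SD, n = 3), and the Control stood at 0.208% ± 0.145 (SD, n = 3). Nxf1 2 and Nxf1 3 thus lay above every library of Alyref and Chtop, Nxf1 1 lay among them, and the Alyref and Chtop libraries lay within the range of the Control except Chtop 3, which lay below it.

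**Figure D1:**
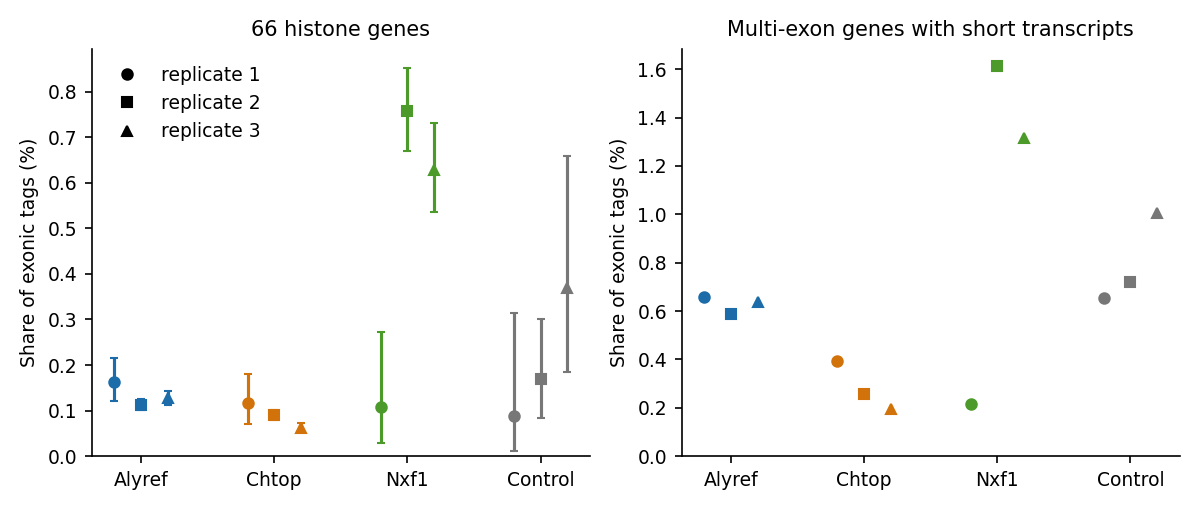
Left, share of exonic tags in the 66 histone genes (percent, exact 95% binomial interval) in each library of the 4 groups, and right, the same share for 1032 multi-exon genes with transcripts of at most 792 bases (points without interval). In both panels Nxf1 2 and Nxf1 3 sit above all Alyref and Chtop libraries and Nxf1 1 does not.

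The order against the Control turned with the denominator. Over all tags, introns and intergenic sequence included, Alyref libraries averaged 0.0525% and Chtop libraries 0.0417%, with 0.123% in Nxf1 and 0.0273% in the Control, so that Alyref and Chtop then lay above the Control. Only 8.08% to 32.7% of Control tags were exonic, against 36.2% to 58.3% of Alyref and Chtop tags and 14.7% to 46% of Nxf1 tags. No RNA abundance was measured in these libraries, so that more contact per molecule and more histone mRNA cannot be told apart, and the same holds for the share of cells in S phase.

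Short multi-exon transcripts moved in the same way. Multi-exon genes with transcripts no longer than the longest histone transcript (1032 genes, at most 792 bases) took 1.61% and 1.32% of exonic tags in Nxf1 2 and Nxf1 3 but 0.214% in Nxf1 1. They took 0.588% to 0.658% in Alyref, 0.194% to 0.395% in Chtop and 0.654% to 1.00% in the Control. The other single-exon genes (1012), most of them longer, took 1.52% ± 0.0665 (SD, n = 3) in Nxf1, 1.40% ± 0.136 (SD, n = 3) in Chtop and 0.737% ± 0.0571 (SD, n = 3) in Alyref, so that Nxf1 and Chtop were close there and the 3 Nxf1 libraries lay between 1.44% and 1.58%. The 153 other single-exon genes of at most 792 bases took 0.0236% ± 0.00405 (SD, n = 3) in Nxf1 and 0.0117% ± 0.0100 (SD, n = 3) in Chtop. In Alyref they took 0.00654% ± 0.00292 (SD, n = 3). These shares rest on 15, 35 and 41 tags, and the Control had 0. Nxf1 1 stood highest there, at 0.0267% on 1 tag, and Chtop 1 at 0.0232% on 4 tags. The part of transcript length in the histone share was not tested.

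Next, each gene was compared between the groups with edgeR's quasi-likelihood test over all protein-coding genes (Benjamini-Hochberg adjusted p under 0.05). The filter on low counts kept 784 genes and a single histone gene, H3C2, so that the other 65 were not tested in that fit. H3C2, which codes for a core histone H3, had 5, 23 and 11 tags in Alyref replicates 1 to 3, 1, 12 and 9 in Chtop, 0, 16 and 10 in Nxf1 and 0, 3 and 0 in the Control. In CPM, Nxf1 2 and 3 stood at 445 and 380 against 50.3 to 160 in Alyref and 35.9 to 58.1 in Chtop, while Control 2 alone reached 460. The gene passed the filter through these libraries of Nxf1 and the Control. It thus entered the fit because it was high in Nxf1, and its tests against Nxf1 give no independent support. H3C2 was lower in Alyref than in Nxf1 (log2 difference -2.66, SE 0.66, adjusted p = 0.000673) and lower in Chtop than in Nxf1 (-3.68, SE 0.72, adjusted p = 4.69e-06), beside 17.6% and 19.0% of all tested genes called lower in these comparisons. With library size from all tags the split of calls over all tested genes turned. It went from 93 higher and 138 lower to 623 and 18 for Alyref, and from 97 and 149 to 1002 and 24 for Chtop. H3C2 was not among the genes that passed the filter then. The 1 histone gene that passed was called lower than in Nxf1 in both Alyref (-1.74) and Chtop (-1.93). H3C2 was no longer called in Alyref against Nxf1 without Nxf1 replicate 2 (-2.20, adjusted p = 0.0502), or with DESeq2 (-1.41, adjusted p = 0.147). It was not called against the Control for any factor, nor between Alyref and Chtop (log2 difference 1.01, SE 0.65, adjusted p = 0.203). In those comparisons 0.383% (Alyref against Control), 3.83% (Chtop against Control), 0.128% (Nxf1 against Control) and 42.5% (Alyref against Chtop) of all tested genes were called either way.

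Without the filter the fit covered 14384 genes with at least 1 tag, among them 57 histone genes. The remaining 9, H1-6, H2AC1, H2BC9, H2BC10, H3C3, H3C11, H4C7, H4C12 and H4C13, had 0 tags in all 12 libraries, and 8 of them had a unique 30-mer at 78.8% or more of their bases. In this fit 12 of 57 histone genes (21.1%) were lower in Alyref than in Nxf1, beside 1.15% of all genes, and none was higher. In Chtop 22 of 57 (38.6%) were lower than in Nxf1, beside 2.79% of all genes, and none was higher. The histone genes had a median log2 difference from Nxf1 of -1.99 in Alyref and -2.31 in Chtop, beside 0.43 and 0.32 over all genes tested. The counts depended on how libraries were scaled. With library size taken from all tags the calls numbered 4 and 12, the histone medians were -1.55 and -1.49, and the medians over all genes were 0.86 and 1.21. With DESeq2 size factors there were 3 and 12 calls. The DESeq2 test itself called 2 and 6 of 57 lower, beside 7 and 60 of all 14384 genes. For the other settings of this fit the share over all genes is not given here. Counts fell to 2 and 5 without Nxf1 replicate 2, and to 4 and 14 without Nxf1 replicate 3. Without Alyref replicate 2 or 3 the first count was 5, and without Chtop replicate 3 the second was 14. With the 4 libraries numbered 1 left out they were 11 and 17.

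**Figure D2:**
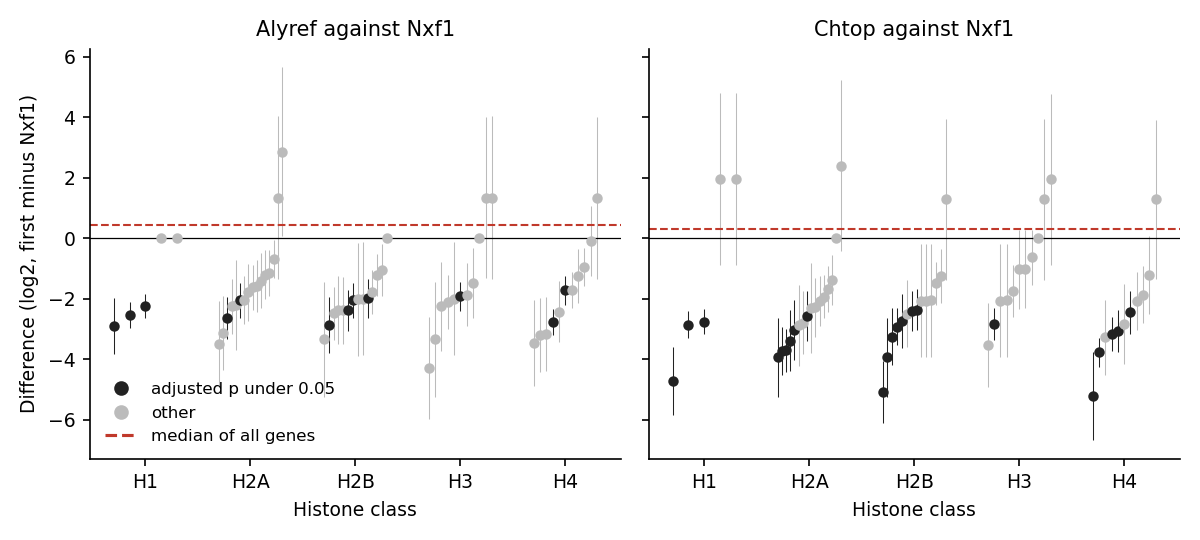
Fitted log2 differences with their standard errors for the 57 histone genes with a tag, by class, for Alyref against Nxf1 (left) and Chtop against Nxf1 (right). The dark points (12 left, 22 right) passed adjusted p under 0.05 and all lie below 0, the dashed line marks the median of all genes (0.43 and 0.32), and both comparisons use the same Nxf1 libraries.

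Linker histones were among the most tagged. H1-4, a linker histone with the most tags of any member (145), had 10, 24 and 21 tags in Alyref, 0, 29 and 14 in Chtop, 0, 28 and 19 in Nxf1 and none in the 3 Control libraries. H1-2 had 1, 18 and 21 tags in Alyref, 4, 17 and 12 in Chtop, 0, 23 and 17 in Nxf1 and none in the Control. For both genes Nxf1 2 and Nxf1 3 lay above all Alyref and Chtop libraries in CPM, while Nxf1 1, with 0 tags, was too shallow to place. Pooled over replicates, H1-4 stood at 712 CPM in Nxf1, 105 in Alyref and 78.9 in Chtop. In the fit without a filter it was lower in Alyref than in Nxf1 by a log2 difference of -2.23 (SE 0.40, adjusted p = 1.5e-05) and in Chtop by -2.76 (SE 0.42, adjusted p = 1.99e-08). H1-2 gave -2.53 (SE 0.43, adjusted p = 5.3e-06) and -2.86 (SE 0.45, adjusted p = 8.77e-08). The calls of H1-2 and H1-4 in both comparisons held in all 18 alternatives of that fit. H1-3 had 7 tags in Nxf1, 5 in Alyref and 1 in Chtop, and was called in both comparisons, in 4 and 17 of the 18 alternatives. H1-1 and H1-5 held the few remaining H1 tags.

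Histone H4 and H1 genes had the most tags per gene and kilobase of transcript, and their order differed between the factors. H4 genes had 30.6 tags per gene and kilobase in Alyref, 14.8 in Chtop and 20.7 in Nxf1 (pooled replicates), and H1 genes 22.0, 17.8 and 20.7. H3 genes had the fewest, with 9.97, 10.4 and 7.01. The rates are not scaled to depth, so that they compare classes within a factor and not factors. Scaled to exonic tags, H4 genes stood at 320 CPM in Alyref, 149 in Chtop and 1712 in Nxf1 (pooled replicates). H3C14, H3C15, H4C14 and H4C15 had a unique 30-mer at 0% of their bases and still count as genes of their class. These levels were not tested between classes. H4C3 had 2, 14 and 18 tags in Alyref, 0, 12 and 6 in Chtop, 0, 28 and 13 in Nxf1 and none in the Control. Its Nxf1 2 and Nxf1 3 values, 779 and 494 CPM, stood above the highest Alyref value of 82.4 and the highest Chtop value of 43.2. It was lower in Alyref than in Nxf1 by -2.77 (log2, SE 0.44, adjusted p = 5.47e-07) and in Chtop by -3.77 (SE 0.49, adjusted p = 1.67e-11), in 17 and 18 of the 18 alternatives. H4C8 had 5, 17 and 19 tags in Alyref, 1, 10 and 5 in Chtop, 0, 15 and 9 in Nxf1 and 0, 0 and 1 in the Control. It differed from Nxf1 by -1.72 in Alyref (SE 0.49, adjusted p = 0.0202, called in 12 of 18 alternatives) and by -3.17 in Chtop (SE 0.57, adjusted p = 5.55e-06). H4C5 and HIST1H4B were called lower in Chtop than in Nxf1 (-3.06, SE 0.69 and -2.45, SE 0.73), and not in Alyref. These calls held in 17 and 14 of the 18 alternatives, with adjusted p up to 0.0948 for H4C5 and 0.625 for HIST1H4B. HIST1H4B reached 670 CPM in Control 3, on 2 tags, above its 223 CPM in Nxf1 2.

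Among H2A and H2B genes, called members and uncalled ones lay side by side. H2AC11, the H2A gene with most tags, had 4, 10 and 21 tags in Alyref, 0, 7 and 9 in Chtop, 0, 9 and 1 in Nxf1 and 1, 0 and 0 in the Control. Its groups overlapped, and it was not called in any comparison. H2AC12 had 2, 10 and 10 tags in Alyref, 1, 6 and 0 in Chtop, 0, 8 and 8 in Nxf1 and none in the Control. It was lower than in Nxf1 in Alyref (-2.05, SE 0.59, adjusted p = 0.0208) and in Chtop (-3.71, SE 0.70, adjusted p = 1.93e-05), the first in 12 of the 18 alternatives, with adjusted p up to 0.296, and the second in all 18. H2BC12 had 0, 12 and 13 tags in Alyref, 2, 9 and 3 in Chtop, 0, 14 and 4 in Nxf1 and 0, 2 and 1 in the Control, and only 31.8% of its bases began a unique 30-mer. It was lower in Alyref than in Nxf1 (-2.06, SE 0.57, adjusted p = 0.0146) and in Chtop (-2.92, SE 0.62, adjusted p = 0.000251), in 14 and 17 of the 18 alternatives. Against Alyref the adjusted p rose to as much as 0.794. Its pooled Control value of 254 CPM on 3 tags was close to its Nxf1 value of 273. H2BC11 had 0, 17 and 6 tags in Alyref, 0, 11 and 9 in Chtop, 0, 7 and 2 in Nxf1 and 1, 0 and 3 in the Control. It was not called, and its Control 3 value was the highest of the gene.

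**Figure D3:**
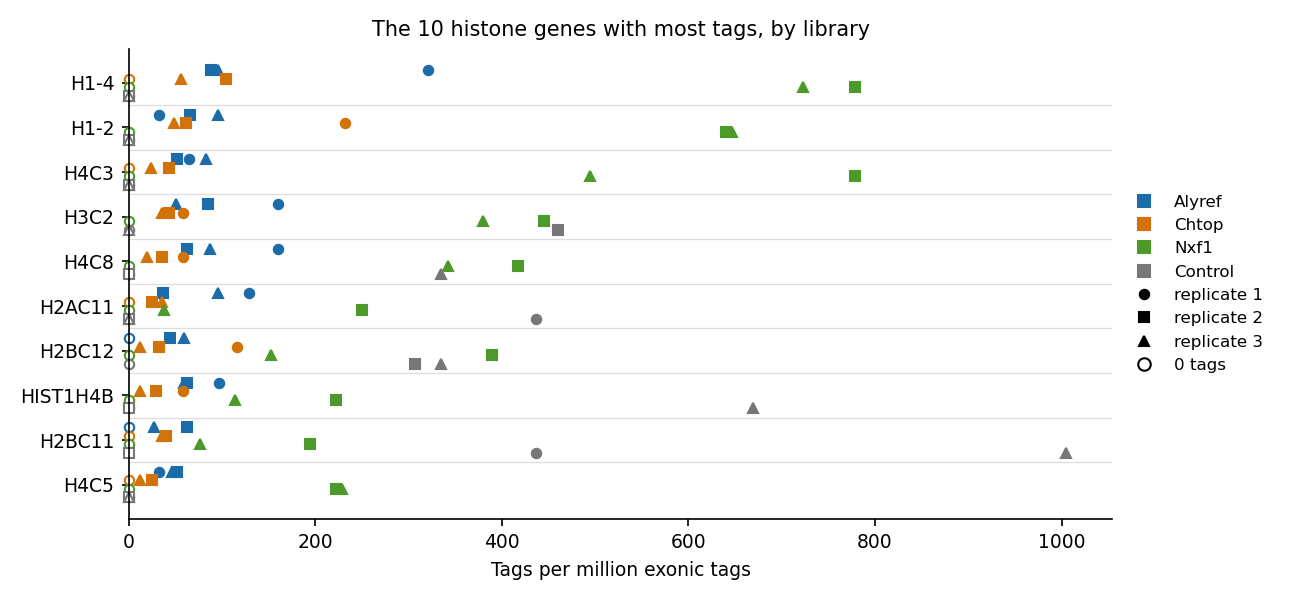
CPM of the 10 histone genes with most tags in each of the 12 libraries, by group (colour) and replicate (symbol), with open symbols for 0 tags. For H1-4, H1-2 and H4C3 the 2 deeper Nxf1 libraries stand apart from all others, and for H3C2, H4C8, H2AC11, H2BC12, HIST1H4B and H2BC11 a Control library with 1 to 3 tags lies among the Nxf1 values or above them.

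Against the Control, the counts were too few to place most genes. The Control held 24 histone tags in all, on a total of 11802 exonic tags, so that 0 tags over the 3 Control libraries allow up to 254 CPM. No histone gene was called for Alyref or Chtop in the fit without a filter, in which 0.862% and 1.76% of all genes were called. At an unadjusted edgeR p under 0.05 there were 1 and 0 of 57 histone genes, beside 1915 and 1865 of all 14384 genes. With DESeq2 there were 2 and 2, beside 2206 and 2399 of all genes, and no histone gene passed adjustment. For Nxf1, H1-4, H1-2 and H4C3 were called higher (adjusted p = 0.028, 0.0435 and 0.0402 with edgeR), beside 0.0556% of all genes. For H1-4 the pooled Nxf1 value was 2.8 times the limit that 0 Control tags allow over the group. It was 2.38 times that limit for H1-2 and 2.44 times for H4C3. These ratios leave out the counting error of Nxf1 and the spread between its replicates, and Nxf1 1 had 0 tags in each of these genes. The pooled Alyref and Chtop values of these genes, 33.0 to 105 CPM, lay under that limit. The 3 calls against the Control were lost with either other scaling, with the 4 libraries numbered 1 left out, and without any of Alyref replicates 2 and 3, Nxf1 replicates 2 and 3 or any Control replicate (0 calls each), and 1 remained without Chtop replicate 2 or 3.

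Alyref and Chtop were compared directly too. Without the filter, H2BC4 (0, 9 and 6 tags in Alyref, 0, 1 and 0 in Chtop) and H4C8 were higher in Alyref, by 3.28 (SE 0.94, adjusted p = 0.0103) and 1.44 (SE 0.50, adjusted p = 0.0439) on the log2 scale, beside 6.2% of all genes called higher. With 1 tag in Chtop the size for H2BC4 rests on the prior count of the fit. H2BC4 was called in 15 of 18 alternatives and H4C8 in 4. The median over the 57 histone genes was 0.40 beside 0.08 over all genes and became -0.04 with library size from all tags, where the median of all genes was -0.28. No call was left without Alyref replicate 2 or 3 or Chtop replicate 3, and 1 was left without replicate 1 of Alyref, Chtop, Nxf1 or the Control, Chtop replicate 2 or Control replicate 3.

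The second question was where along the histone transcript the factors were crosslinked. Tags lay along the whole transcript, with both UTRs holding more than their share of the length. Over all libraries the coding sequence, 80.6% of the length from start to hairpin end, held 68.0% of 1518 tags (65.6 to 70.3). The 5′ UTR, 8.57% of the length, held 15.8% (14.0 to 17.7), and the 3′ UTR, 10.8% of the length, held 16.2% (14.4 to 18.2). By factor the pooled 5′ UTR held 17.6% (Alyref), 16.5% (Chtop) and 12.3% (Nxf1), and pooled 3′ UTR shares were 15.4%, 13.8% and 19.3%, with exact 95% intervals that overlap (14.8 to 20.8, 13.0 to 20.4 and 9.36 to 15.7 for the 5′ UTR). In 10 equal bins from start to hairpin, the first bin held 21.6% of Alyref, 19.1% of Chtop and 15.2% of Nxf1 tags, and the last held 11.3%, 10.5% and 17%. In multi-exon genes the first bin held 19.5%, 11.5% and 12.5%, and the last 6.51%, 10.2% and 8.01%.

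**Figure D4:**
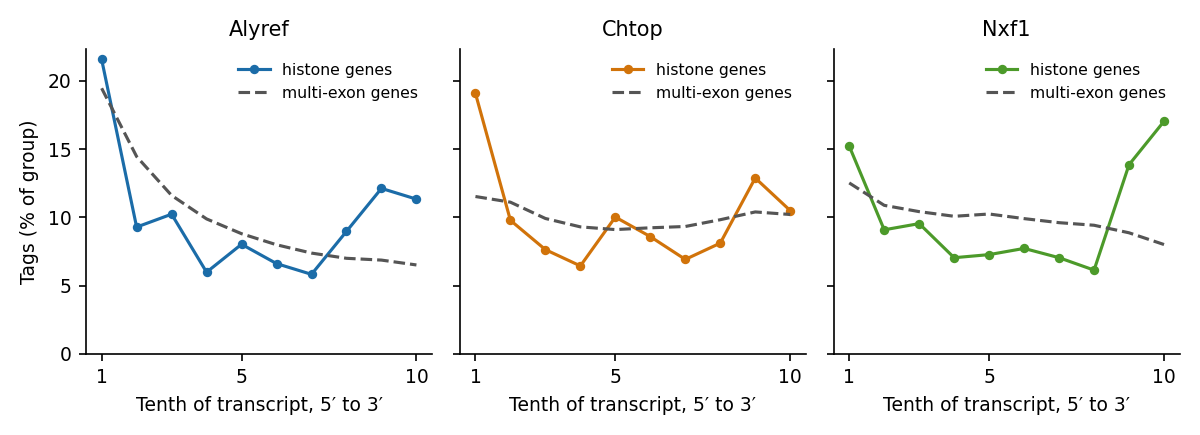
Percentage of each factor's tags in 10 equal bins of the transcript from 5′ to 3′, for histone genes from start to hairpin end (coloured, pooled replicates) and multi-exon genes (dashed). The last histone bin holds 17% of Nxf1 tags against 8.01% in multi-exon genes, and no error is drawn since the bins were not tested.

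The balance of tags along the transcript was measured in each library as the log2 ratio of tags 3′ of the midpoint to tags 5′ of it, with 0.5 added to each. Alyref gave -0.62, -0.31 and -0.22 in replicates 1 to 3, Chtop 0.00, -0.12 and -0.28, and Nxf1 0.00, 0.16 and 0.02, so that all Alyref libraries leaned to the 5′ side and no Nxf1 library did. Chtop 3 lay between Alyref 2 and Alyref 3. The value of Nxf1 1 rests on 2 tags on each side of the midpoint and that of Chtop 1 on 10, and the tests weight every library alike. The Alyref libraries differed from the 6 libraries of the other factors by -0.35 (two-sided exact permutation test, p = 0.0238, adjusted p = 0.321 over 18 tests), and Nxf1 from the others by 0.32 (exact permutation p = 0.0595, adjusted p = 0.321). Neither passed the adjustment. Chtop differed by 0.03 (exact permutation p = 0.869). Against the Control, where 3 against 3 cannot give a p below 0.1, Alyref differed by -0.06, Chtop by 0.19 and Nxf1 by 0.38 (exact permutation p = 0.9, 0.7 and 0.2), and the Control means rest on 24 tags.

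Multi-exon genes leaned to the 5′ side in Alyref by -0.84 ± 0.04 (SD, n = 3), against -0.07 ± 0.05 in Chtop and -0.20 ± 0.08 in Nxf1. Histone genes in Alyref, at -0.38 ± 0.21 (SD, n = 3), leaned less. Histone balance less that of multi-exon genes was 0.23, 0.57 and 0.58 in Alyref, 0.12, -0.03 and -0.27 in Chtop and 0.11, 0.41 and 0.26 in Nxf1. It was positive in every Alyref and Nxf1 library and in 1 of 3 Chtop libraries. In Nxf1 1 and in Chtop 1, the positive Chtop library, the histone tags were even (2 against 2 and 10 against 10). Their differences thus come from the multi-exon genes alone. Alyref exceeded the other factors by 0.36 (exact permutation p = 0.0714, adjusted p = 0.321) and Chtop fell below them by a difference of -0.42 (exact permutation p = 0.0357, adjusted p = 0.321), neither past the adjustment. For Nxf1 the difference was 0.06 (exact permutation p = 0.798). Against the Control the exact permutation test gave p = 0.4 (Alyref), 0.9 (Chtop) and 0.7 (Nxf1).

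Just 5′ of the stem-loop, crosslinked bases were dense. The window was chosen after its values were seen and is given as a description. In the 25 bases from -45 to -21, counted from the last base of the hairpin as 0, lay 176 tags of all libraries, or 7.04 tags for each position summed over the 66 genes. That was 2.46 times the mean of the positions from -200 to -46, in Alyref 2.14, in Chtop 2.10 and in Nxf1 3.12 times. The rise began before the window. Positions -60 to -46, part of that reference, stood at 1.84 times its mean, in Alyref 1.90, in Chtop 1.37 and in Nxf1 2.10 times. Of the tags from -200 to 0, the window took 64 of 253 in Alyref (25.3%), 41 of 164 in Chtop (25%) and 67 of 203 in Nxf1 (33.0%), beside 12.4% of the length. By library the share was 43.8%, 19.3% and 28.8% in Alyref, 44.4%, 24.7% and 22.4% in Chtop, and 100%, 34.4% and 29.1% in Nxf1, where the first of each rests on 16, 9 and 2 tags. The Control had 4 of 9 such tags in the window. The factors overlapped, and every library with a tag in that stretch was above 12.4%.

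**Figure D5:**
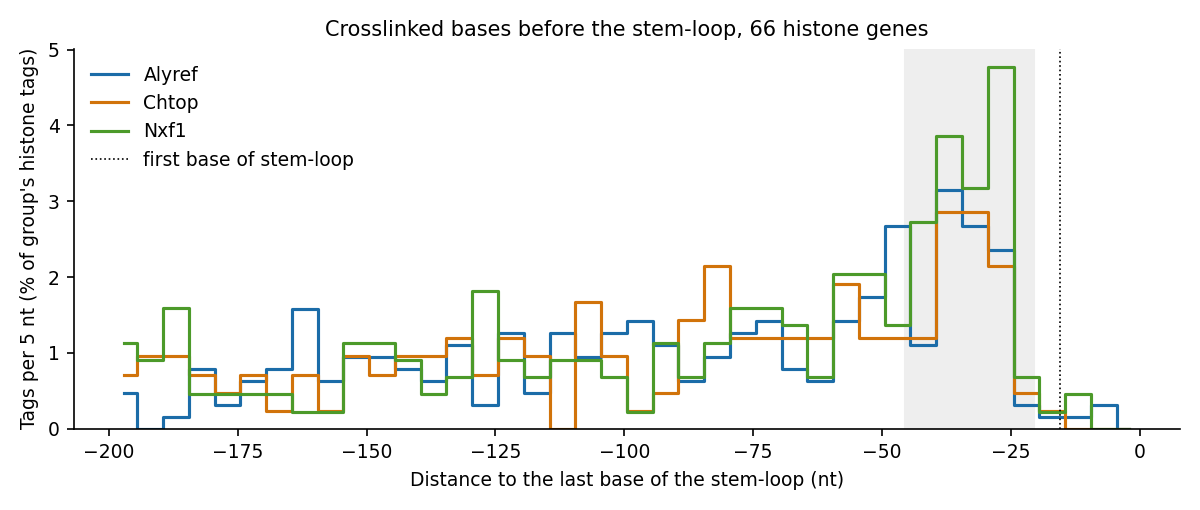
Tags in steps of 5 bases before the last base of the stem-loop (x axis, distance in nt), as a percentage of each factor's histone tags from transcript start to hairpin end, with pooled replicates. The shaded window from -45 to -21 holds 64 Alyref, 41 Chtop and 67 Nxf1 tags, and few tags lie in the hairpin, right of the dotted line.

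Multi-exon genes showed no such rise at their annotated ends. Over the same distances from the annotated end their tag density was 0.643 (Alyref), 0.634 (Chtop) and 0.751 (Nxf1) times that from -200 to -46, and the window took 6.11% to 13.0% of tags in the 12 libraries. Annotated poly(A) ends are less exact than a hairpin, and the part of this in the difference was not tested. Within the hairpin and the 5 bases before it few tags were seen, 9 from -20 to 0 over the 66 genes. Reads had to be longer than 15 bases and start just past the crosslinked base, so that on a mature mRNA, which ends a few bases past the hairpin, a contact in most of the hairpin leaves a read too short to be kept. The part of this limit in the low count was not tested.

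By class, the window took 36.4% of the tags from -200 to 0 for H4, 32.5% for H3, 26.9% for H2B, 24.4% for H1 and 17.3% for H2A. Uracil made up 26.0% of the window, against 16.5% from -200 to -46, and 56.8% of the window's tags (49.2 to 64.2) were at uracil, against 35.8% (31.3 to 40.5). Counted per uracil, the window held 0.233 tags and the upstream stretch 0.0943. A unique 30-mer began at 87.0% of the window's bases and at 70.5% of the bases upstream. Both moved with the rise, and their part in it was not tested.

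At single bases, tags rarely met. Of 1321 crosslinked bases in histone transcripts, 1175 were seen in 1 library, 128 in 2 and 18 in 3 or more, and 9 of these 18 lay between -45 and -21, 13 of the 18 being uracil. The windows of the 4 genes with the bases of most tags are given next, from -45 to -21 on the transcript strand, with bases of 3 or more tags in capitals.
H4C8 (chr6:26285380-26285404, minus strand): gctgcactcTtattTtCaTtttcaa
H3C2 (chr6:26031846-26031870, minus strand): gtcacttTTtcatcagtcttaaaac
H2BC12 (chr6:27114166-27114190, minus strand): caagtaagcgtcTtaaagcccaacc
HIST1H4B (chr6:26027150-26027174, minus strand): ggttaatCttttcgtcagTtTtctt
In H3C2 the bases at -38 and -37 (chromosome 6, 26031863 and 26031862), in the 3′ UTR, had 5 tags each, 1 from each of 5 libraries. At -38 these were Alyref 2, Chtop 2, Chtop 3, Nxf1 2 and Nxf1 3. In H4C8 the base at -31 (26285390) had 5 tags, 1 in each of Alyref 2, Alyref 3, Chtop 2, Nxf1 2 and Nxf1 3. In H2BC12 the base at -33 (27114178) had 4 tags, from Alyref 2, Chtop 2, Chtop 3 and Nxf1 2. In HIST1H4B the base at -38 (26027167) had 4 tags, 3 of them in Alyref and 1 in Chtop. The first 3 of these bases, and that of H2BC12, were thus seen with all 3 factors, and none of the 4 with the Control. The Control, with 24 histone tags, is too shallow for its absence at a base to be read. It was seen at -36 of H4C8, also in capitals, with 1 tag each from Alyref 2, Chtop 3 and Control 3. The windows of the 4 genes held 26, 19, 9 and 16 tags, in the order printed.

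Crosslinks fell on uracil more often than the sequence holds it. Uracil is 18.7% of the 66 transcripts, and it was the crosslinked base for 42.8% of Alyref tags (38.9 to 46.8), 47.3% of Chtop tags (42.4 to 52.2) and 40.7% of Nxf1 tags (36.1 to 45.4). By library the range was 39.2% to 45.9% in Alyref, 45.9% to 60% in Chtop and 39.4% to 50% in Nxf1. The Control gave 29.2% (12.6 to 51.1) on 24 tags. Uracil is the base that UV light crosslinks most readily, and the interval of the Control overlaps those of the factors.

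The third question was whether any factor was found past the stem-loop, on RNA that had not been cleaved. There were 51 tags in the 200 bases past the hairpin over all libraries, spread over 21 genes with at most 7 in a gene. H1-4 had 7, and H2AC13 and H2AC25 had 5 each. None lay in the first 5 bases and 10 in the first 50 bases, and 18 fell in an exon of another annotated isoform of the gene. As a share of tags from transcript start to 200 bases past, Alyref gave 1.92%, 1.29% and 3.48% in replicates 1 to 3 (1, 4 and 10 tags), Chtop 0%, 4.28% and 11.0% (0, 11 and 19 tags), Nxf1 33.3%, 0.368% and 1.20% (2, 1 and 2 tags) and the Control 0%, 0% and 8.33% (0, 0 and 1 tag). The value of Nxf1 1 rests on 6 tags. Groups overlapped, and none of the 6 comparisons passed (two-sided exact permutation p = 0.357 to 1, adjusted p = 0.958 to 1). Pooled, Chtop had 30 of 449 tags past the hairpin (6.68%, 4.55 to 9.40), Alyref 15 of 650 (2.31%, 1.30 to 3.78) and Nxf1 5 of 445 (1.12%, 0.366 to 2.60). These pooled intervals leave out the spread between libraries.

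At 15554 ends of other genes with a last exon of 500 bases or more, the 200 bases past the end took 4.42% of tags (with the last 500 bases as the rest) in Alyref, 2.48% in Chtop and 5.71% in Nxf1, and 9.46% in the Control. With up to 500 bases before the hairpin end as the rest, histone genes gave 2.55% (1.43 to 4.17), 7.37% (5.03 to 10.4) and 1.23% (0.402 to 2.86), and 4.00% in the Control. Many histone transcripts are shorter than that, with a median of 484 bases, so that the spans are not equal. Alyref and Nxf1 had thus a lower pooled share past the hairpin than past other ends and Chtop a higher one. These values were not tested.

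Histones outside the clusters served as a neighbouring family. The list of 12 replication-independent histone genes, most of which make spliced, polyadenylated mRNAs, had 718 tags, at 588 CPM in Alyref, 543 in Chtop, 1561 in Nxf1 and 1017 in the Control. By library Nxf1 2 and Nxf1 3 stood at 1669 and 1597 CPM, above 533 to 866 in Alyref and Chtop, and Nxf1 1 at 267 on 1 tag. MACROH2A1, a large variant of H2A, had 159 tags, H3-3B, the replacement histone H3.3, 110, and H2AX, which is phosphorylated at DNA breaks, 103. The H2AX gene has no intron and is known to make an mRNA that ends in the stem-loop besides a polyadenylated one. In the fit without a filter 1 of 12 was lower in Alyref than in Nxf1 (H2AX, -1.85, SE 0.52, adjusted p = 0.0163), beside 1.15% of all genes. In Chtop 2 of 12 were lower (H3-3B, -2.49, SE 0.55, adjusted p = 0.000523, and H2AX, -1.59, SE 0.50, adjusted p = 0.0304), beside 2.79% of all genes. H3-3B was higher in Alyref than in Chtop (1.45, SE 0.43, adjusted p = 0.014), beside 6.2% of all genes, and none of the 12 was called against the Control. Their medians were -0.75 and -1.12, closer to 0 than those of the 57 replication-dependent genes, a difference that was not tested.

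Genes for histone pre-mRNA 3′ end processing (15 genes) had 1577 tags, at 1436 CPM in Alyref, 1293 in Chtop, 1637 in Nxf1 and 1186 in the Control. CASP8AP2, a component of histone locus bodies, had 239 tags, NPAT, the activator of histone transcription, 217, and SRRT, a partner of the cap-binding complex, 193. None of the 15 was called between Alyref and Nxf1 or between Chtop and Nxf1, where 579 and 886 of 14384 genes were called either way. SRRT (1.58, SE 0.34, adjusted p = 0.000283), NCBP1 (1.31, SE 0.39, adjusted p = 0.0138) and CPSF3 (1.85, SE 0.54, adjusted p = 0.0119) were higher in Alyref than in Chtop, and CSTF2T was lower (-1.57, SE 0.42, adjusted p = 0.0056). Of all 14384 genes 892 were called higher and 450 lower in that comparison. CASP8AP2, with no Control tag, was the only one of the 15 called against the Control (Chtop, adjusted p = 0.0412), beside 1.76% of all genes. SLBP itself, the stem-loop binding protein, had 45 tags and was not called in any comparison.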

How the data were processed

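The deposited files list the crosslinked bases of each library with counts of tags. Per the paper's methods, the authors removed phiX reads with bowtie 1.1.2, handled random barcodes with UMI-tools 0.5.3, kept reads longer than 15 bases, aligned with STAR 2.4.2a to hg19 keeping unique hits, merged lanes and collapsed duplicates, so that a count is 1 cDNA per tag. Every per-sample column was used, and pooled files were not.

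Tags on the gene strand in the exons of 1 transcript model per gene were counted with GRCh37 and GENCODE 44 lifted to it (19882 genes), mitochondrial DNA left out. This annotation is later than that used for alignment. Tests were edgeR 4.0.16 (quasi-likelihood, TMM, filterByExpr, all 12 libraries in R 4.3.3), with DESeq2 1.42.0 as an alternative, and two-sided exact permutation tests over libraries, adjusted over 18. Standard errors are the log2 difference over the square root of F. Runs of a library were 1 replicate. On simulated counts for Alyref against Nxf1 over the 784 filtered genes, 1% of 2-fold and 40% of 4-fold changes were found. False calls made up 6.82% there, above the 5% aimed at. Over 14384 unfiltered genes 0% of both changes were found. The simulation gave every gene the same dispersion, unlike the data. The real fit without a filter called 579 genes, so that the 0% does not describe it.

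The members and gene lists were chosen with earlier results of these data known. Genes were named by a rule: the 10 histone genes with most tags, the first of each class, up to 10 called members per comparison of the filtered fit, and up to 3 genes with most tags of each list. The filtered fit gave H3C2 alone. The rule was not applied to the calls of the fit without a filter, so that members of large difference there can be unnamed. H2AC12, H2BC4, H1-3, SLBP, NCBP1, CPSF3 and CSTF2T, the genes with tags past the hairpin and those without tags were named after their values were seen. The fit without a filter was planned as an alternative and was taken up as a result of its own after the filter had left 1 histone gene.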

Additional observations from a re-analysis of the deposited data

How the results depend on the processing

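With the filter, 1 histone gene was called in Alyref against Nxf1 and in Chtop against Nxf1 and 0 elsewhere, and without it 12, 22, 3 (Nxf1 against Control) and 2 (Alyref against Chtop). Leaving out 1 library with the filter kept more genes and gave 0 to 7, 1 to 7, 0 to 3 and 0 to 1 calls in that order, and without the filter 2 to 12, 5 to 22, 0 to 3 and 0 to 2. DESeq2 called 2 and 6 lower in the Nxf1 comparisons, beside 7 and 60 of all 14384 genes. Without the filter, library size from all tags gave 4, 12, 0 and 1 calls, DESeq2 size factors 3, 12, 0 and 1, each base counted once or merged exons 1 in Alyref against Chtop, and leaving out the 4 libraries numbered 1 gave 0 in Nxf1 against Control and 1 in Alyref against Chtop. H3C2, which had passed the filter through libraries of Nxf1 and the Control, was the gene called with it. In Alyref against Nxf1 it was -1.41 with DESeq2 and -2.69 to -2.13 with 1 library left out. These alternatives of the fit without a filter, the merged exons and the all-tags library size were chosen after seeing the data.

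Over all tags the histone share was 0.0525% (Alyref), 0.0417% (Chtop), 0.123% (Nxf1) and 0.0273% (Control). For the balance of Alyref against Control the outermost parts of the transcript gave 0.0847, equal weight for each gene 0.0994 and bases with a unique 30-mer 0.124, and for Chtop against the other factors the last gave -0.0933. Less the multi-exon balance, Chtop against Control was 0.0710 with the outermost parts and 0.0422 with equal weights, and Nxf1 against the other factors -0.0557 with equal weights. In the 50 bases past the hairpin, Chtop exceeded the other factors by 1.11 percentage points, Nxf1 differed from them by -0.575 and Alyref from Control by 0.228. The cause of these reversals was not tested, and none of these differences passed adjustment in any setting reported.

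With 1 library left out, the balance ranged from -0.26 to 0.11 (Alyref against Control), -0.0124 to 0.356 (Chtop against Control) and -0.0625 to 0.104 (Chtop against the other factors), and less the multi-exon balance from -0.34 to 0.22 (Chtop against Control), -0.0243 to 0.537 (Nxf1 against Control) and -0.0319 to 0.137 (Nxf1 against the other factors). The share past the hairpin ranged from -1.94 to 2.23 (Alyref against Control), -0.638 to 5.11 (Chtop against Control), -2.00 to 14.5 (Nxf1 against Control), -4.79 to 3.46 (Chtop against the other factors) and -2.89 to 13.6 (Nxf1 against the other factors), the lowest value of the last without Nxf1 replicate 1.

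Replicate numbers did not pair the samples: over 18 pairs of same-numbered libraries the correlation of deviations was -0.06 to 0.13. A replicate block left the filtered counts of calls as they were and gave 10, 16, 1 and 2 without the filter. Depth limits the Control (24 histone tags) and every replicate 1 most. Of 507 alternative values, 395 stayed on the side and within the bounds of the reported value.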
